A study of Mus musculus with 227 samples.

Results

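Potassium channels let potassium leave or enter a cell through its membrane, and the genes described here encode 35 of the subunits that form their pores. The genes were chosen by symbol, as a list of channel families, and each was found on 1 row of a count table of 31689 genes. The RNA came from primary cerebrocortical cultures, a mixture of neurons and glia grown from the cortices of mouse embryos at day 16.5, progeny of FVB/N mothers and C3B6F1 fathers. After 21 days in vitro, cultures in 6-well plates received for 8 h either vehicle (0.2% DMSO) or 1 of 218 drugs that enter the brain. Each drug had 1 library and vehicle had 9, all by stranded mRNA-seq. The sources used here give no drug doses, and the labels do not say whether the 9 vehicles came from separate cultures, so p-values measure only the spread between these libraries. All groups share the cross, the age, the medium and the treatment time, and the labels name no altered allele.

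Voltage-gated channels of the Kv families repolarize the axon and dendrite after an action potential and set how fast a neuron can fire. Inward rectifiers (Kir) and the leak channels of the K2P family hold the resting potential, and the calcium-activated BK and SK channels and the sodium-activated Slack channels add outward current when these ions enter. Neurons that change their firing can change the amount of channel RNA they hold, and in glia the inward rectifier Kir4.1 takes up potassium released by neurons.

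Library totals ran from 22 to 65.2 M counts (median 35 M), and those of the vehicles from 31.4 to 43.8 M. Each label carries a 4-digit run code whose meaning the labels do not give. There are 9 codes with 8 to 32 libraries each, and 3 of them hold no vehicle. The neuron marker genes (Rbfox3, Tubb3, Map2 and 3 more) summed to 4237 to 5855 CPM in the vehicles (CPM, read counts scaled to a common library total) and the astrocyte markers to 2554 to 4946 CPM. The microglia markers summed to 3.3 to 18 CPM there, and the endothelial marker Cldn5 and the oligodendrocyte marker Mog were too low to pass the filter on counts. In such mixed cultures, fewer cells of a type and less RNA per cell cannot be told apart.

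All 35 genes passed the filter, with at least 130 reads for the lowest of them, Kcnj11, in any library. Per kilobase of the deposited gene length, their median level in the vehicles was 13.3 CPM, against 6.68 over all 15474 genes that passed, and 24 of the 35 lay above that value. A pair of inward rectifier genes had the highest medians, while the 6 genes of that family ran down to 2.66 (Kcnj6). Kcnj4, which encodes Kir2.3 of neuronal dendrites, had 34.4, 47.3 and 74.9 CPM per kilobase (lowest, median and highest vehicle). Kcnj10, which encodes the astrocyte channel Kir4.1, had 22.3, 35.2 and 73.3. Both ranges overlapped, so their order was not resolved by the vehicles. Kcnk1, for the leak channel TWIK-1, followed with 23.2, 24.8 and 27.6, and Kcnma1, the BK channel gene, with 17.3, 23.4 and 30.0.

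**Figure D1:**
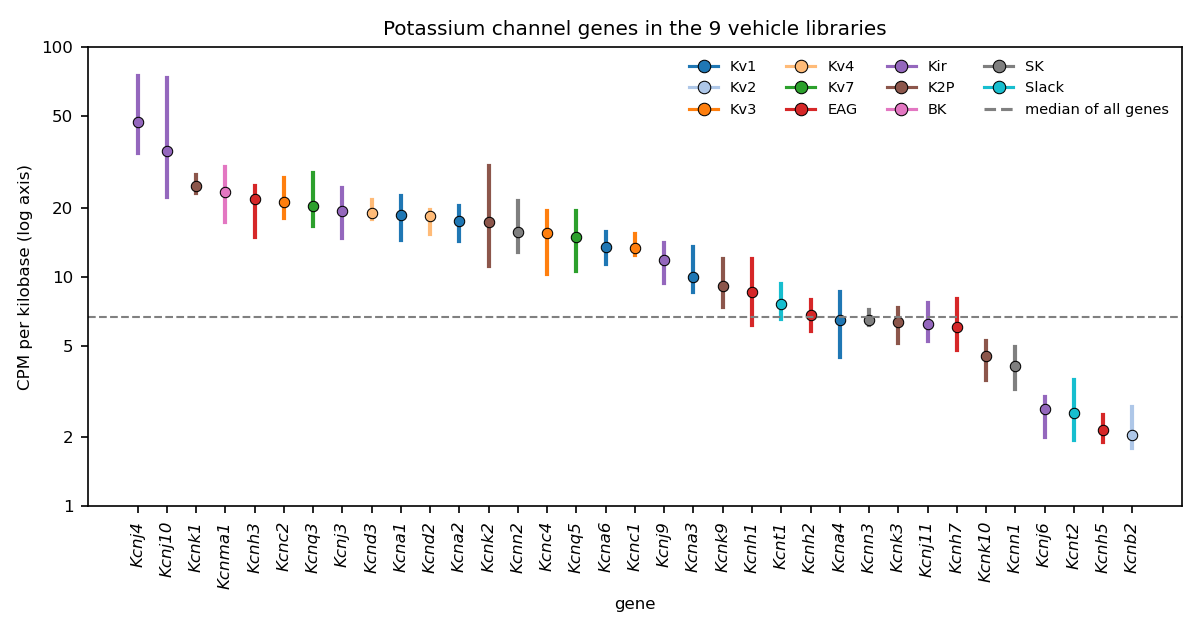
Level of each potassium channel gene in the 9 vehicle libraries, in CPM per kilobase of gene length on a log axis, with a point at the median, a bar from the lowest to the highest library and a colour for each family. Medians fall from 47.3 for Kcnj4 to 2.05 for Kcnb2, the dashed line marks the median of all genes (6.68), and most neighbouring ranges overlap.

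Levels differed within most families. Of the ether-a-go-go (EAG) genes, Kcnh3 had a median of 21.9 CPM per kilobase and Kcnh5 had 2.2. Of the genes of G-protein-gated rectifiers, Kcnj3 (19.2) and Kcnj9 (11.8) stood above Kcnj6 (2.66). The Kv1 genes ran from 18.6 for Kcna1 to 6.51 for Kcna4, although the deposited length of Kcna1 (8970 bases) is longer than the gene itself in the annotation. The Kv3 genes, whose channels allow fast firing, lay between 13.3 (Kcnc1) and 21.1 (Kcnc2), and both Kv4 genes, for the A-type current of dendrites, between 18.4 and 19.0. The M-current gene Kcnq3 had 20.4 and Kcnq5 14.9. Kcnb2 was lowest of all at 2.05. When the 35 genes were put in order of their medians, 33 of the 34 steps joined genes with overlapping vehicle ranges, and the exception was the step from Kcnn1 to Kcnj6.

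The vehicles differed most in Kcnj10, Kcnk2 and Kcnj4. Kcnj10 ran from 120 to 396 CPM, a 3.29-fold range, and Kcnk2, for the mechanosensitive leak channel TREK-1, from 46.5 to 127 CPM, a 2.72-fold range. Kcnj4 spanned 2.2-fold. Kcnn3, a small-conductance calcium-activated channel gene, spanned 1.2-fold (17.8 to 20.6 CPM), Kcnk1 also 1.2-fold and Kcnd3 1.21-fold. Run code accounted for a median of 0.30 of the variance of the 35 genes over all libraries, against 0.235 over all genes, with 0.509 for Kcna6 and 0.491 for Kcnj10 at the top.

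The other genes of the pathway were taken from lists of further pore-forming subunits (32 genes) and of modifier and auxiliary subunits (33 genes). Of the former 20 passed the filter over all libraries, and of the latter 23.

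Benzodiazepines raise the effect of GABA on its inhibitory receptor, and 5 of them were in the screen. Taken as replicates of a class and compared with the 9 vehicles by edgeR's quasi-likelihood test, with Benjamini-Hochberg adjustment over all 14735 genes tested, they had 5 of the 35 channel genes lower and none higher. Over all genes tested, 3.86% passed the adjusted threshold of 0.05 (1.91% lower and 1.95% higher). The 35 genes had a median log2 fold change of -0.13, against 0.01 over all genes.

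Kcnh7 encodes an ERG-type channel (chromosome 2, 62693414 to 63184287, minus strand, mm10). Its 5 values were 59.96 CPM with Clonazepam, 65.3 with Lorazepam, 54.4 with Oxazepam, 63.8 with Temazepam and 56.0 with Triazolam, against 70.1, 88.0 and 117 in the vehicles (lowest, median, highest). Every benzodiazepine library lay below every vehicle. Over all genes 2.76% had groups that did not overlap in this way, in either direction, and among the channel genes only Kcnh7 did. The median Kcnh7 level of Clonazepam's run code, 69.3 CPM, also lay below every vehicle. For Clonazepam, the comparison with the vehicles therefore cannot tell drug and run code apart. Against the other libraries of its run code, its log2 difference was -0.25 ± 0.23 (SE) and was not called. The medians of the other drugs' run codes lay above the lowest vehicle (76.9 CPM for Oxazepam, 81.5 for Temazepam and Triazolam, 87.7 for Lorazepam). The log2 fold change was -0.61 ± 0.12 (SE, 5 against 9 libraries, edgeR adjusted p = 0.0135).

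Kcnj4 (chromosome 15, 79483714 to 79505241, minus strand) had 69.1 CPM with Clonazepam, 78.1 with Lorazepam, 49.7 with Oxazepam, 75.4 with Temazepam and 57.8 with Triazolam, against 74.0, 102 and 161 in the vehicles. The groups overlapped at the upper end of the drugs. It fell by 0.74 ± 0.19 on the log2 scale (SE, edgeR adjusted p = 0.0476). Oxazepam gave the lowest Kcnj4 value of all 218 drugs.

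Kcna4, whose channel Kv1.4 carries an inactivating current in axons (chromosome 2, 107290639 to 107298502, plus strand), had 19.1, 24.0, 14.5, 24.5 and 18.2 CPM in the same order of drugs, against 21.4, 31.2 and 41.1 in the vehicles. Lorazepam and Temazepam lay within the vehicle range and the other three below it. The log2 fold change was -0.62 ± 0.16 (SE, edgeR adjusted p = 0.0461). Kcnj3, which encodes GIRK1 (chromosome 2, 55435970 to 55598145, plus strand), had 67.9, 82.2, 57.9, 84.2 and 67.4 CPM in that order, against 76.7, 100 and 126. Again Lorazepam and Temazepam were in the vehicle range. The log2 fold change was -0.52 ± 0.13 (SE, edgeR adjusted p = 0.0428).

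Kcnd2, for the A-type channel Kv4.2 (chromosome 6, 21215503 to 21729805, plus strand), changed least of the called genes. Its values were 73.9, 80.7, 77.0, 81.2 and 77.9 CPM, against 79.4, 94.6 and 100 in the vehicles. The log2 fold change was -0.22 ± 0.06 (SE, edgeR adjusted p = 0.0490).

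With run code as a term in a limma fit over all 218 drug and 9 vehicle libraries, all 5 of these genes were called again and Kcnk3, for the leak channel TASK-1, joined them at -0.24 ± 0.07 (SE, limma adjusted p = 0.0113), where 12.1% of all genes were called (5.82% lower and 6.3% higher). Kcnh7 was then at -0.44 ± 0.10 (limma adjusted p = 0.000728). Against the other libraries of its own run code, each of the 5 drugs had a log2 difference below 0 for each of these 5 genes, from -0.81 for Kcnj4 with Triazolam to -0.08 for Kcnj4 with Clonazepam, and none of these single-library differences was called. Lorazepam came from a run code without a vehicle, so its comparison with the vehicles cannot tell drug and run code apart.

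The count of 5 rested on each of the drug libraries. Leaving out Clonazepam, Lorazepam, Oxazepam, Temazepam or Triazolam left 1 called gene each time, and so did leaving out vehicle 5, 6, 7, 8 or 9, while 3 were left without vehicle 3. Kcnh7 passed in all 14 of these fits, with log2 fold changes from -0.66 to -0.56.

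**Figure D2:**
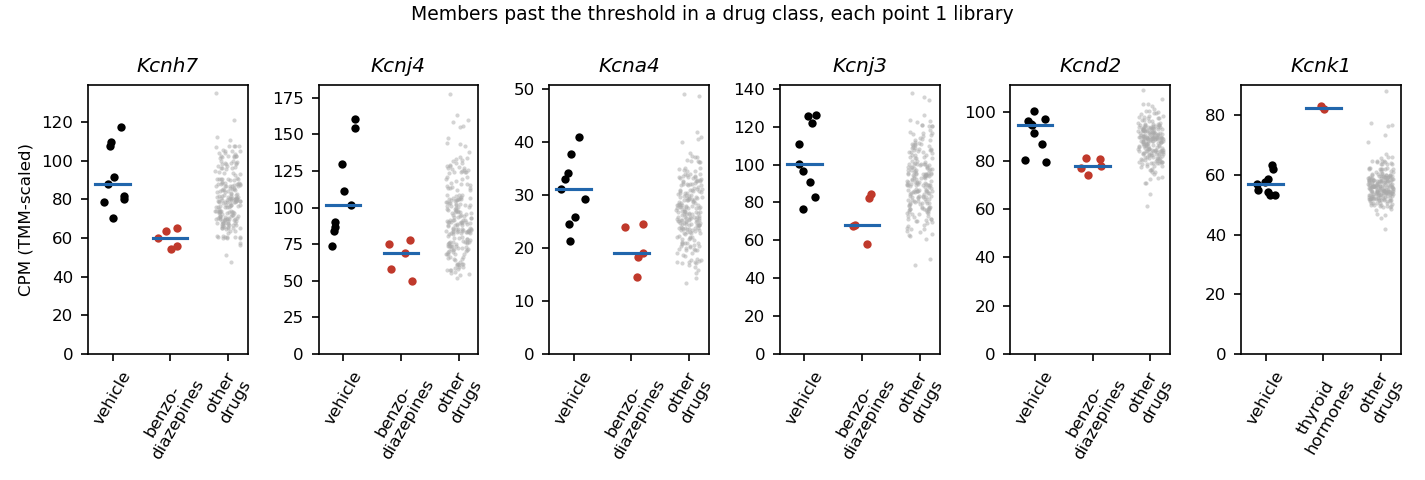
CPM of the 6 genes past the threshold in a drug class, 1 point for each library, with the vehicles in black, the class in red, the other drugs in grey and a blue line at the median of each of the first 2 groups. All 5 benzodiazepine libraries lie below the vehicles for Kcnh7 (54.4 to 65.3 against 70.1 to 117 CPM), the groups overlap for Kcnj4, Kcna4, Kcnj3 and Kcnd2, and both thyroid hormone libraries lie above the vehicles for Kcnk1.

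In the same comparison, 13 of the 18 activity-regulated genes (Fos, Arc, Bdnf, Npas4 and others that neurons switch on when they fire) were lower and none was higher. Their levels summed to 248 to 334 CPM with the benzodiazepines, against 357 to 1922 CPM in the vehicles, without overlap. None of the 6 neuron, 5 excitatory neuron, 6 inhibitory neuron or 6 astrocyte markers was called. Of the 3 mural cell markers Rgs5 was lower, at -0.49 ± 0.13 (edgeR adjusted p = 0.0488), and the 3 summed to 21.9 to 44.7 CPM with the drugs and 18.025 to 48.1 CPM in the vehicles. Excitatory neuron markers summed to 509 to 1132 CPM with the drugs and 593 to 1258 CPM in the vehicles, and astrocyte markers to 2958 to 5515 and 2554 to 4946 CPM. The part of these levels in the channel result was not tested.

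Of the further channel genes, 1 pore-forming subunit of 18 tested rose with the benzodiazepines, Kcnd1, by 0.26 ± 0.07 on the log2 scale (edgeR adjusted p = 0.0421), and 1 fell, the inward rectifier gene Kcnj2, at -0.74 ± 0.18 (edgeR adjusted p = 0.0348). Of 22 modifier and auxiliary subunits, Kcnv1, which encodes a silent subunit that joins Kv2 channels, was at -1.25 ± 0.24 (edgeR adjusted p = 0.0135), and Kcns2, another silent subunit, at -0.56 ± 0.13 (edgeR adjusted p = 0.0264).

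Promoters are shown for the 5 genes that fell with the benzodiazepines and for Kcnk1, which rose with the thyroid hormones. Each is the RefSeq promoter of GRCm38.p6, 250 bases before to 50 after the start in RefSeq, 5′ to 3′ on the gene's strand. RefSeq's start is the gene start given here for Kcnh7, Kcnj4 and Kcnj3. It lies upstream of it for Kcna4, Kcnk1 and Kcnd2, whose windows end 1, 19 and 108 bases before the gene start. In the order Kcnh7, Kcnj4, Kcna4, Kcnj3, Kcnd2 and Kcnk1 they lie at chr2:63184238-63184537 (minus), chr15:79505192-79505491 (minus), chr2:107290339-107290638 (plus), chr2:55435720-55436019 (plus), chr6:21215096-21215395 (plus) and chr8:125994852-125995151 (plus). Capitals mark the GC box GGGCGG and the CRE half-site TGACG, each on either strand.
Kcnh7: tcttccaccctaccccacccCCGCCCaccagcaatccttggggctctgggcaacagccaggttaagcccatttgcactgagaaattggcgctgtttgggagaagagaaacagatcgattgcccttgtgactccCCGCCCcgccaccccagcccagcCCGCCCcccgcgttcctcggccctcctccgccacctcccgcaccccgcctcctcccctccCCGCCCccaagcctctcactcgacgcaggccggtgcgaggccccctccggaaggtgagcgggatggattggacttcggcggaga
Kcnj4: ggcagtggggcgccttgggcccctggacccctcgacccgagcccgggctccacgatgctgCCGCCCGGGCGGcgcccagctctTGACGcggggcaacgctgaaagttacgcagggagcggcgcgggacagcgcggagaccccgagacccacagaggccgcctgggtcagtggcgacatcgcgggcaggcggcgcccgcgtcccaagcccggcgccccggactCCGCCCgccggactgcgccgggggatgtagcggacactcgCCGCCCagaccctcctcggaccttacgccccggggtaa
Kcna4: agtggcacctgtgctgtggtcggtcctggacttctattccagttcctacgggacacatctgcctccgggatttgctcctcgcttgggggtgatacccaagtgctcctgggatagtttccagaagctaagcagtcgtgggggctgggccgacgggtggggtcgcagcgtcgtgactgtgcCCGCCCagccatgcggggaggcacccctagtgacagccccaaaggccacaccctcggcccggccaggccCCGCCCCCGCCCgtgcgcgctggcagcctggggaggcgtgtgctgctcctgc
Kcnj3: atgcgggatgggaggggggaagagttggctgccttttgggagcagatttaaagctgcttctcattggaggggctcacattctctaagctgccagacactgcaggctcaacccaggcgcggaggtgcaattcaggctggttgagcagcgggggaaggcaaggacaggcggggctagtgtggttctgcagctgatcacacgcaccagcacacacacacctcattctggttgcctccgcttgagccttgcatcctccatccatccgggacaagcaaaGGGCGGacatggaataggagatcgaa
Kcnd2: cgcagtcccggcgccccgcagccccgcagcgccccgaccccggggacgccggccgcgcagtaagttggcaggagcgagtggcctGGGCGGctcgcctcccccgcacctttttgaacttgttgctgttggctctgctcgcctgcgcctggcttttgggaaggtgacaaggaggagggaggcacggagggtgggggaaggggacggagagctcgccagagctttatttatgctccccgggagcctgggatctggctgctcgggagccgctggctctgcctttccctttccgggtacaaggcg
Kcnk1: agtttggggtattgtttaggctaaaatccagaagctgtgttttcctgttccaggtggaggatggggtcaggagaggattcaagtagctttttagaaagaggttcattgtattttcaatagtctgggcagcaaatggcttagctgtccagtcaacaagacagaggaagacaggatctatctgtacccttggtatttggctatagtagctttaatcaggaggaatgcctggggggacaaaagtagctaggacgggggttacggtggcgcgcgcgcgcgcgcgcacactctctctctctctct
The Kcnh7, Kcnj4, Kcna4, Kcnj3 and Kcnd2 windows hold 4, 4, 3, 1 and 1 GC boxes, Kcnj4 also holds 1 CRE half-site, 167 bases before its start, and the Kcnk1 window holds neither motif. RefSeq promoters were matched for 26 of the 35 genes, and not for Kcna1, Kcnb2, Kcnq3, Kcnh3, Kcnj11, Kcnk3, Kcnk9, Kcnn2 and Kcnt1. A GC box was found in 16 of the 26 (61.5%), against 35.9% of all 27025 promoters of the same length, and a CRE half-site in 8 (30.8%), against 21.0%. The full CRE TGACGTCA was in none of the 26 and in 1.88% of all promoters, and the AP-1 motif TGANTCA in none of the 26 and 7.93% of all. On both strands the searched thyroid hormone half-site AGGTCA was in 1 of the 26 (16.0% of all promoters) and the glucocorticoid half-site AGAACA in 4 (19.0% of all). None of the full CRE, the AP-1 motif and these hormone half-sites was found in any of the 6 windows. The TATA box TATAAA was in 1 of the 26 (14.2% of all promoters) and the E-box CACGTG in none (7.24% of all). A full CRE contains the half-site on both strands.

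Thyroid hormones act on nuclear receptors that switch genes on and off directly, and Levothyroxine·Na (T4) and Liothyronine·Na (T3) had the same run code. Against the 9 vehicles, edgeR called 1 of the 35 genes, Kcnk1, and 1.3% of all genes (0.963% higher and 0.339% lower). Kcnk1 encodes TWIK-1, a weak leak channel of neurons and astrocytes (chromosome 8, 125995170 to 126030685, plus strand). It had 82.2 CPM with Levothyroxine·Na and 83.0 CPM with Liothyronine·Na, against 53.4, 57.1 and 63.5 in the vehicles. Both libraries lay above all 9 vehicles, and the log2 fold change was 0.52 ± 0.07 (SE, 2 against 9 libraries, edgeR adjusted p = 0.00311). Over all genes, 19.1% had groups that did not overlap in this small comparison.

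With either hormone left out, the single remaining library gave log2 fold changes of the same direction that did not pass, and the count was 0. Within their run code each hormone was called on its own, at 0.46 ± 0.12 for Levothyroxine·Na (limma adjusted p = 0.0426) and 0.47 ± 0.12 for Liothyronine·Na (limma adjusted p = 0.0309). In the class fit with a run-code term, where 2.39% of all genes were called, Kcnc1, for the Kv3.1 channel of fast-firing neurons, rose as well, at 0.25 ± 0.06 (limma adjusted p = 0.00930). So did Kcnk9, for the leak channel TASK-3, at 0.54 ± 0.16 (limma adjusted p = 0.0451). DESeq2 called 6 genes for this class, 4 of them lower, where it called 6.77% of all genes. Among them were Kcna4 at -0.73 ± 0.22 (DESeq2 adjusted p = 0.0188) and Kcnc1 at 0.29 ± 0.09 (DESeq2 adjusted p = 0.0376). With the run-code term, none of the 35 genes was called lower. The Kcna4 median of the hormones' run code, 21.6 CPM, lay near the lowest vehicle (21.4 CPM). Kcnj10 was at 449 and 481 CPM, above the vehicles' 396, but its log2 fold change of 1.01 ± 0.37 did not pass (edgeR adjusted p = 0.177). Astrocyte markers summed to 4736 and 5103 CPM with the hormones, against 2554 to 4946 CPM in the vehicles. Excitatory neuron markers summed to 615 and 540 CPM (vehicles 593 to 1258), and the inhibitory neuron marker Vip was lower, at -1.24 ± 0.27 (edgeR adjusted p = 0.0494). Activity-regulated genes summed to 330 and 333 CPM, below every vehicle (357 to 1922), with none of the 18 called. In the hormones' run code the 31 libraries other than Formoterol, both hormone libraries among them, had median sums near these values. They were 349 CPM for activity-regulated genes, 4863 CPM for astrocyte markers and 612 CPM for excitatory neuron markers. With run code as a term, the median log2 fold changes were -0.213, 0.101 and -0.0317 in the same order, with none called. The part of these levels in the result was not tested.

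**Figure D3:**
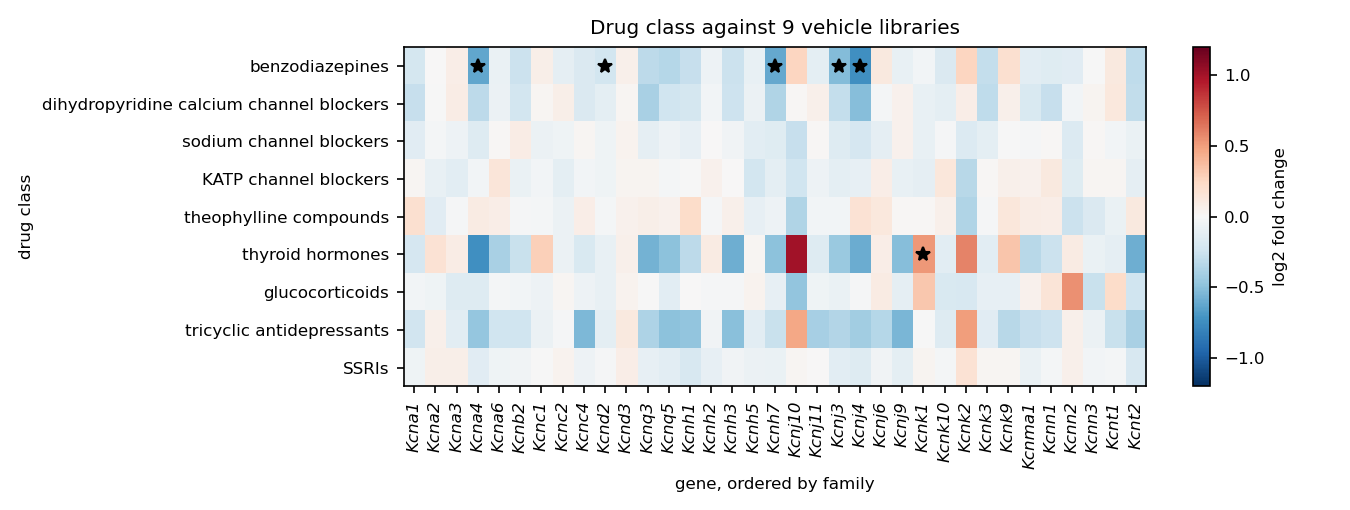
Log2 fold change of each of the 35 genes (columns, ordered by family) in each of the 9 drug classes (rows) against the 9 vehicles, with red for higher, blue for lower and a star where the edgeR adjusted p was under 0.05. Stars stand at 5 genes for benzodiazepines and at Kcnk1 for thyroid hormones.

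None of the 35 genes was called by edgeR in the other 7 classes. At an unadjusted p under 0.05 there were 12 genes for tricyclic antidepressants, 5 for dihydropyridine calcium channel blockers, 4 for glucocorticoids, 2 for KATP channel blockers, 1 for theophylline compounds, and 0 for sodium channel blockers and SSRIs. Over all genes the shares at that p were, in the same order, 26.4%, 5.75%, 3.51%, 0.935%, 2.5%, 1.67% and 1.2%, against 34.3%, 14.3%, 11.4%, 5.71%, 2.86%, 0% and 0% of the 35 genes. Adjusted calls over all genes in these classes were 0% except for glucocorticoids (0.0134%). DESeq2 called 0.302% of all genes for glucocorticoids and 4.32% for tricyclic antidepressants. It called Kcnk1 for glucocorticoids at 0.33 ± 0.08 (DESeq2 adjusted p = 0.0338), and Kcnj9 and Kcnt1 for tricyclic antidepressants at -0.56 ± 0.12 (DESeq2 adjusted p = 0.00804) and -0.27 ± 0.09 (DESeq2 adjusted p = 0.0495). It called no channel gene in the other 5. The 35 genes had a median log2 fold change of -0.24 with tricyclic antidepressants, 30 of them below 0, against 0.00364 over all genes. Neuron markers had a median of -0.31 and astrocyte markers of 0.39 in that class, none of them called. The part of these levels was not tested. With run code as a term, none of the 35 genes was called for tricyclic antidepressants, where 0.0194% of all genes were called. The median log2 fold changes were then -0.11 for the 35 genes, -0.17 for neuron markers and 0.19 for astrocyte markers.

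The 3 glucocorticoids, ligands of a receptor that activates stress-response genes, had 3 called genes once run code was a term, where 1.07% of all genes were called. Kcnn2, for the SK2 channel that follows calcium entry, rose by 0.59 ± 0.11 (limma adjusted p = 0.000120). Kcnk1 rose by 0.31 ± 0.07 (limma adjusted p = 0.00394), and Kcnn3 fell by 0.26 ± 0.07 (limma adjusted p = 0.0186). Kcnn2 had 111 CPM with Dexamethasone, 82.1 with Betamethasone and 67.9 with Cortisone Acetate, and Kcnk1 had 76.3, 77.4 and 61.4 CPM. Kcnn3 had 13.8, 14.1 and 19.0 CPM. For Kcnk1 and Kcnn3, Dexamethasone and Betamethasone lay close together and away from Cortisone Acetate. For Kcnn2, Betamethasone lay between Dexamethasone and Cortisone Acetate, nearer to the latter. Doses are not given here, and these values are set side by side without a test.

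KATP channels close when ATP rises, and their pore subunit in neurons is encoded by Kcnj11. With the channel blockers, Kcnj11 had 7.35 CPM for Glyburide, 8.04 for Glimepiride, 6.82 for Repaglinide and 6.1 for Chlorpropamide, and with the channel opener Diazoxide 7.03 CPM. The vehicles ran from 6.142 to 9.01 CPM, and every drug but Chlorpropamide lay in that range. The edgeR log2 fold changes ran from -0.27 ± 0.20 (Chlorpropamide) to 0.12 ± 0.19 (Glimepiride), with adjusted p from 0.926 to 1.

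For single drugs, 14 of the 7630 combinations of a gene and a drug were called by edgeR against the 9 vehicles, or 14 of the 35 genes in 3 drugs. Over all genes and drugs 0.12% of combinations were called. DESeq2 called 89 combinations in 20 drugs, against 0.396% over all genes and drugs. Comparing each vehicle with the other 8 called 0 of the 35 genes and 0 of all genes (62 to 832 genes at an unadjusted p under 0.05).

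Fenofibrate, a fibrate that activates the nuclear receptor PPAR alpha, had 7 lower and no higher, where 10.6% of all genes were called (4.78% lower). Kcnc2, for the Kv3.2 channel of fast-firing interneurons, had 58.9 CPM against 112, 131 and 166 in the vehicles. That was the lowest Kcnc2 value of all 218 drugs, at a log2 fold change of -1.23 ± 0.22 (SE, 1 against 9 libraries, edgeR adjusted p = 0.00712). Kcnj3 had 50.3 CPM (vehicles 76.7 to 126) and -1.05 ± 0.27 (edgeR adjusted p = 0.0334). Kcna2, which encodes Kv1.2 of axons, had 117 CPM (vehicles 171 to 242) and -0.84 ± 0.19 (edgeR adjusted p = 0.0184). Its axonal partner Kcna1 had 96.2 CPM (vehicles 129 to 202) and -0.80 ± 0.23 (edgeR adjusted p = 0.0478). All 4 values lay below every vehicle.

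Kcnh5 had 5.6 CPM with Fenofibrate (vehicles 7.74 to 10.1), a log2 fold change of -0.65 ± 0.16 (edgeR adjusted p = 0.0291). Kcnd2 had 61.1 CPM (vehicles 79.4 to 100) and -0.59 ± 0.13 (edgeR adjusted p = 0.0173), and Kcnn3 had 14.8 CPM (vehicles 17.8 to 20.6) and -0.36 ± 0.09 (edgeR adjusted p = 0.0350). Leaving out vehicle 5 or vehicle 9 left 4 called genes, and the other vehicles left 5 to 8. In this library 2 of 6 neuron markers and 2 of 6 inhibitory neuron markers were lower, and 1 of 6 astrocyte markers was higher. The inhibitory markers summed to 896 CPM, against 1373 to 2036 CPM in the vehicles, and their part in the channel result was not tested. Of the further channel genes tested, 1 of 20 pore-forming subunits rose and 2 fell, and 1 of 26 auxiliary subunits rose and 3 fell. Over all genes 10.6% were called in this library (5.82% higher and 4.78% lower). The counts are not read as particular to the channel genes. The auxiliary subunit gene Kcne4 was at 3.39 ± 0.58. It did not pass the filter over all libraries, and a filter for 1 library against 9 can admit a gene through that library. Its rise is therefore not read as a result. The fall was largest for the leak channel gene Kcnk5, at -2.71 ± 0.71 (edgeR adjusted p = 0.0361).

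Nilotinib, an inhibitor of the ABL kinase, had 1 gene higher and 5 lower, where 12.2% of all genes were called (6.2% higher and 6.02% lower). Kcnk10, for the leak channel TREK-2, had 17.9 CPM, the highest of all drugs, against 9.04, 11.4 and 13.3 in the vehicles, and rose by 0.70 ± 0.20 (edgeR adjusted p = 0.0456). Kcnh3, an ELK-type channel gene of the forebrain, had 29.3 CPM, the lowest of all drugs, against 53.4, 78.4 and 88.5, at -1.32 ± 0.29 (edgeR adjusted p = 0.0199). The M-current gene Kcnq3 had 124 CPM (vehicles 190 to 324) and -0.97 ± 0.25 (edgeR adjusted p = 0.0313). The SK channel gene Kcnn1 had 8.78 CPM (vehicles 13.2 to 20.004) and -0.92 ± 0.23 (edgeR adjusted p = 0.0320).

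Kcnj9, for the rectifier subunit GIRK3, had 25.7 CPM with Nilotinib (vehicles 36.4 to 54.6) and -0.84 ± 0.20 (edgeR adjusted p = 0.0273), and Kcna6 had 51.9 CPM (vehicles 66.5 to 91.8) and -0.61 ± 0.17 (edgeR adjusted p = 0.0431). Each of the 6 values lay outside the range of the vehicles. The medians of Nilotinib's run code, 35.014 CPM for Kcnj9 and 65.6 CPM for Kcna6, also lay below every vehicle. For Kcnj9 and Kcna6, the comparison with the vehicles therefore cannot tell drug and run code apart. Against the other libraries of Nilotinib's run code, neither gene was called. Without vehicle 5 or 7 the count was 3, and without vehicle 9 it was 2. In this library 3 of 6 neuron markers, 1 of 6 inhibitory neuron markers and both oligodendrocyte precursor markers were lower. Neuron markers summed to 3366 CPM, against 4237 to 5855 CPM in the vehicles, and excitatory neuron markers to 423 CPM, against 593 to 1258. Their part in the result was not tested. DESeq2 called 12 of the 35 genes for Nilotinib, 10 lower and 2 higher, where it called 13.5% of all genes lower and 9.34% higher. Of the auxiliary subunits 9 of 24 fell and 1 rose, Kcnmb2, by 0.52 ± 0.14 (edgeR adjusted p = 0.0434). The 9 that fell included Kcnab1, a cytoplasmic beta subunit of Kv1 channels, at -1.27 ± 0.32 (edgeR adjusted p = 0.0295), and Dpp6, which joins Kv4 channels, at -0.73 ± 0.17 (edgeR adjusted p = 0.0210). Of the further pore-forming subunits the rectifier gene Kcnj2 rose by 1.2 ± 0.31 (edgeR adjusted p = 0.0329) and the rectifier gene Kcnj12 was at -0.71 ± 0.17 (edgeR adjusted p = 0.0282).

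Formoterol, which activates the beta-2 adrenergic receptor, had 1 higher gene, Kcnk1, where 0.259% of all genes were called (0.246% higher and 0.013% lower). Kcnk1 had 88.1 CPM, the highest of all drugs and above every vehicle (53.4 to 63.5), and rose by 0.61 ± 0.10 (SE, 1 against 9 libraries, edgeR adjusted p = 0.0323). The call was lost without vehicle 1, 4, 5, 6, 7 or 9, with the log2 fold change between 0.61 and 0.64, and without vehicle 3 the count was 2. DESeq2 called 11 genes for Formoterol, 9 lower and 2 higher, where it called 3.91% of all genes lower and 2.33% higher, with Kcnn3 at 0.48 ± 0.10 (DESeq2 adjusted p = 0.000177). The median log2 fold change of the 35 genes was -0.49. Activity-regulated genes had a median of -2.27 and excitatory neuron markers of -1.13, none of them called by edgeR. Only 1 of the 9 vehicles shared Formoterol's run code, so these comparisons include differences between run codes. Activity-regulated genes summed to 309 CPM, within the other libraries of that run code (248 to 867 CPM, median 349). Excitatory neuron markers lay below that run code's median of 612 CPM, near its lowest value. Within run code the 35 genes had a median log2 difference of -0.26, with 2 called higher and 1 lower by limma. The part of these levels was not tested.

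Comparison with the vehicles leaves run code in the difference. Each drug library was therefore also compared with the other libraries of its own run code, most of which held other drugs, by limma on log2 CPM with a prior count of 1. Of the 7630 combinations 49 were called, 11 higher and 38 lower, in 12 drugs and 27 of the 35 genes. Over all genes and drugs 0.471% of combinations were called. None of the 35 genes was called when a vehicle was compared in the same way, where 0 to 15 of all genes were called per vehicle by limma (109 to 2225 at an unadjusted p under 0.05). All 7 Fenofibrate calls against the vehicles and 4 of the 6 of Nilotinib were among the 49. The Nilotinib calls not among them were Kcnj9 and Kcna6.

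**Figure D4:**
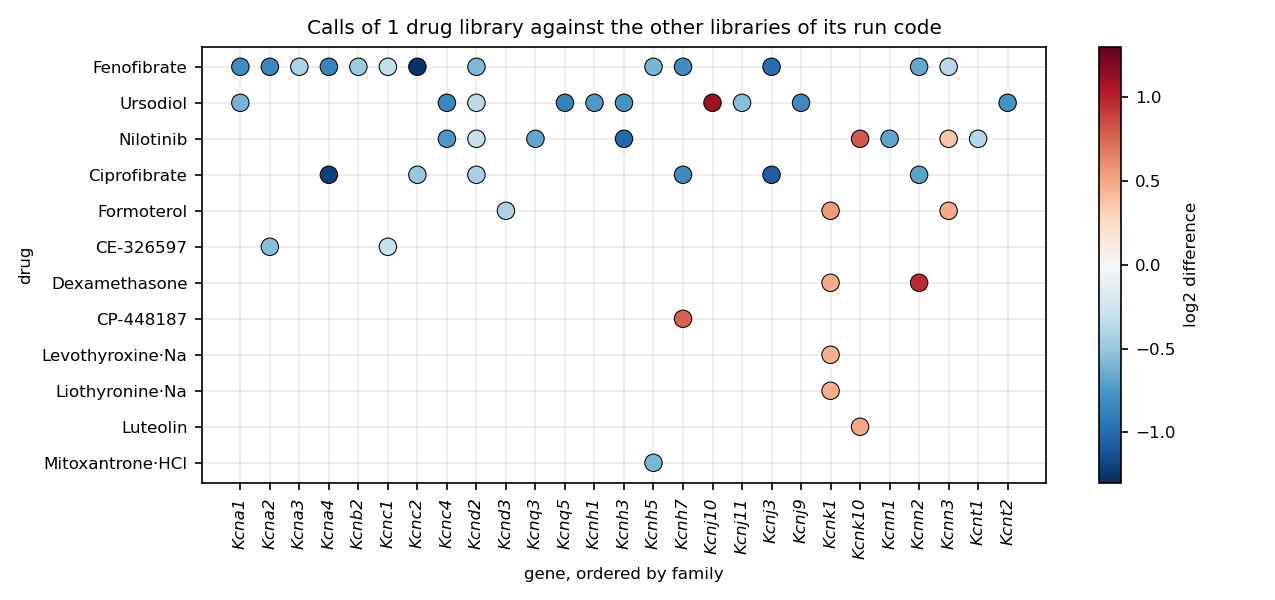
The 49 calls of 1 drug library against the other libraries of its run code, with genes in columns ordered by family, drugs in rows and the log2 difference as colour. Fenofibrate has 13 points, all lower, Ursodiol 10, Nilotinib 8 and Ciprofibrate 6, and Kcnk1 is higher with 4 drugs.

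Fenofibrate had 13 genes lower and none higher, where 27.2% of all genes were called. Kcnc2 was at -1.27 ± 0.12 (limma adjusted p = 1.85e-17), with 58.9 CPM against 112, 143 and 179 in the other 31 libraries of the run code. Kcnj3 was at -1.0 ± 0.23 (limma adjusted p = 0.000240), with 50.3 CPM against 70.3, 100 and 122. Kcna4 was at -0.86 ± 0.29 (limma adjusted p = 0.0170), with 16.9 CPM against 19.7, 30.9 and 48.8. Each was the lowest value of its run code.

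Ciprofibrate, another fibrate, had 6 genes lower and none higher, where 3.53% of all genes were called, in a run code without a vehicle. All 6 were also among the 13 of Fenofibrate, a drug of another run code. The share of Ciprofibrate calls over all genes that Fenofibrate also had was not counted. The overlap is therefore not read as particular to the channel genes. Kcna4 was at -1.22 ± 0.29 (limma adjusted p = 0.00489), with 13.5 CPM, the lowest of all drugs, against 15.3, 31.9 and 49.1 in the other 15 libraries. Kcnj3 was at -1.07 ± 0.23 (limma adjusted p = 0.00177), with 47.0 CPM, again the lowest of all drugs, against 60.6, 100 and 134. Kcnh7 was at -0.83, Kcnn2 at -0.70, Kcnc2 at -0.50 and Kcnd2 at -0.43. Neuron markers summed to 4350 CPM and excitatory neuron markers to 832 CPM, below the other libraries of the run code (4833 to 5574 and 876 to 1219 CPM), and astrocyte markers to 4144 CPM, above them (2501 to 4002 CPM). The part of these levels was not tested.

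The screen held 5 fibrates. Kcnj3 had a log2 difference of 0.10 ± 0.24 with Bezafibrate, 0.45 ± 0.24 with Clofibrate and 0.06 ± 0.24 with Gemfibrozil (SE). For Kcna4 these were 0.01 ± 0.30, 0.50 ± 0.30 and -0.01 ± 0.30. None of the 6 shared genes was called with these 3 drugs. Kcnn2 was below 0 with Clofibrate (-0.54 ± 0.21) and Gemfibrozil (-0.45 ± 0.20) and near 0 with Bezafibrate (0.04 ± 0.21). Doses are not given here, so the values stand side by side and no difference between the fibrates was tested.

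Ursodiol, a bile acid, had 1 gene higher and 9 lower, where 18.9% of all genes were called. Kcnj10 rose by 1.1 ± 0.38 (limma adjusted p = 0.0374), with 390 CPM against 107, 181 and 324 in the other 31 libraries. Kcnq5, an M-current gene, was at -0.88 ± 0.28 (limma adjusted p = 0.0320), with 56.0 CPM against 67.0, 105 and 135. Kcnc4, a Kv3 gene, was at -0.85 ± 0.28 (limma adjusted p = 0.0347), with 30.9 CPM against 37.0, 56.5 and 74.1. All 3 values lay outside the range of the run code. The library also had 6322 CPM of astrocyte markers and 56.2 CPM of mural cell markers, each the highest of all libraries (other libraries of the run code 2554 to 5400 and 20.1 to 48.3 CPM). Its neuron markers, at 3863 CPM, and excitatory neuron markers, at 522 CPM, lay below the other libraries of the run code (4251 to 5855 and 598 to 1233 CPM). The part of these levels was not tested. None of the 35 genes passed for Ursodiol against the 9 vehicles.

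For Nilotinib 2 genes were higher and 6 lower within the run code, where 20.7% of all genes were called. Kcnh3 was at -1.02 ± 0.27 (limma adjusted p = 0.00239), with 29.3 CPM against 33.98, 63.4 and 89.2. Kcnk10 was at 0.80 ± 0.15 (limma adjusted p = 5.01e-06), with 17.9 CPM against 8.53, 10.3 and 12.04, so that Nilotinib stood alone above its run code.

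Dexamethasone had Kcnn2 and Kcnk1 higher, where 0.801% of all genes were called. Kcnn2 was at 0.97 ± 0.20 (limma adjusted p = 0.000458), with 111 CPM, the highest of all drugs, against 44.3, 58.0 and 70.4 in the other 31 libraries. Kcnk1 was at 0.49 ± 0.12 (limma adjusted p = 0.0183), with 76.3 CPM against 48.8, 54.4 and 59.8. Formoterol had Kcnk1 and Kcnn3 higher and Kcnd3 lower, where 0.963% of all genes were called. Kcnk1 was at 0.56 ± 0.12 (limma adjusted p = 0.00248) and Kcnn3 at 0.50 ± 0.12 (limma adjusted p = 0.00774).

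Kcnk1 was thus called higher in 4 drugs, Formoterol, Dexamethasone and both thyroid hormones (0.788% of all genes called for Levothyroxine·Na and 0.711% for Liothyronine·Na), and lower in none. No other of the 35 genes was called higher in more than 2. Formoterol and the hormones share a run code, so each of the 3 was among the libraries the others were compared with. Kcnd2 was called lower in 4 drugs, Fenofibrate, Ciprofibrate, Ursodiol and Nilotinib. The remaining calls were Kcna2 and Kcnc1 lower with CE-326597, Kcnh7 higher with CP-448187, Kcnk10 higher with Luteolin and Kcnh5 lower with Mitoxantrone·HCl, drugs with which 4.57% of the combinations over all genes were called. Kcna6, Kcnh2, Kcnj4, Kcnj6, Kcnk2, Kcnk3, Kcnk9 and Kcnma1 were called with no drug within run code.

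For Kcnk1 and Kcnd2, called with 4 drugs each, and Kcnh7, called with 3 like Kcnn2 and Kcnn3 and taken for its higher mean level, the genes most like them were found by the run-centred correlation of log2 CPM over all 218 drug and 9 vehicle libraries, which share medium, age and, in groups, run code. For Kcnk1 they were Htra1 (r = 0.577), Mfsd2a (0.565), Slc25a33 (0.543), Trim9 (0.482) and Sorl1 (0.463). For Kcnd2 they were Tle4 and Elavl2 (each 0.824), Flrt2 (0.805), Rgmb (0.798) and Fgf13 (0.784), and for Kcnh7 Hecw2 (0.881), Kcnj3 (0.870), Slitrk4 (0.863), Nlk (0.859) and Sh3rf3 (0.854).

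Across the libraries some channel genes moved with the activity-regulated genes and others against them. The activity score is the mean log2 CPM of 18 such genes, and both it and each channel gene were centred on the run-code mean. Of the 35 genes 19 had a Pearson r over 0.3 and 7 under -0.3 (218 drug and 9 vehicle libraries), against 26.4% and 29.6% of all genes, and the median r was 0.372 against -0.0256. The 35 relations were tested by a two-sided permutation test that shuffled libraries within run code, and 1e-05 is the smallest p it can give.

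Kcnj4 had the highest correlation, with r = 0.793 and rho = 0.803 (permutation p = 1e-05 each, Benjamini-Hochberg adjusted 1.35e-05 and 1.21e-05). It was 0.798 without the 2 libraries farthest from the median score, and positive in all 9 run codes. Kcna4 (r = 0.699, rho = 0.735), Kcna1 (0.650, 0.678), Kcnj3 (0.618, 0.687), Kcnh7 (0.616, 0.637) and Kcnk3 (0.615, 0.632) followed, each with the same permutation p. At the other end stood Kcna2 (r = -0.684, rho = -0.709), Kcnj10 (-0.644, -0.677) and Kcnk2 (-0.629, -0.651), also with permutation p = 1e-05 and negative in all 9 run codes. Kcna1 and Kcna2, whose proteins assemble in the same axonal channels, thus had opposite signs. Kcnk9 (r = 0.0928, permutation p = 0.165) and Kcnt1 (r = -0.0290, permutation p = 0.656) did not pass.

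**Figure D5:**
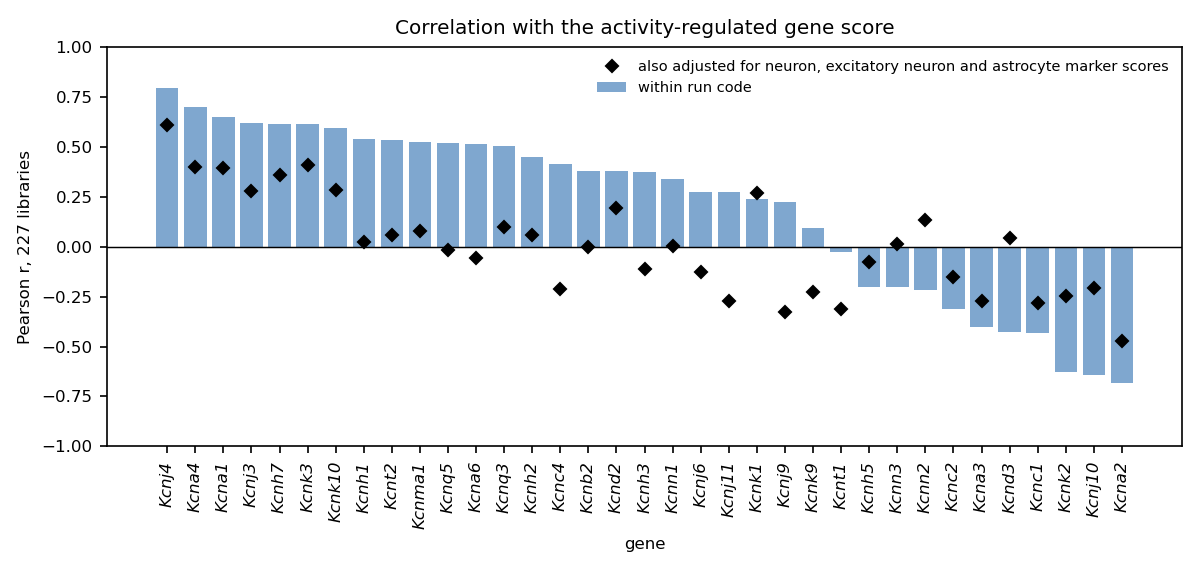
Pearson r of each of the 35 genes with the activity-regulated gene score over all libraries, centred on run code (bars), and the same after adjustment for neuron, excitatory neuron and astrocyte marker scores (diamonds). Kcnj4 keeps the highest value (0.793 and 0.611) and Kcna2 the lowest (-0.684 and -0.473), while most other diamonds lie nearer 0 than their bars.

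Cell type markers moved with the same score. Over the same libraries the activity score correlated with the excitatory neuron markers at r = 0.600 (rho = 0.679) and with the astrocyte markers at r = -0.558 (rho = -0.580), each with permutation p = 1e-05 (1.13e-05 and 1.06e-05 for r and rho after adjustment over 17 relations). Kcnj10 and Kcnk2 followed the astrocyte markers at r = 0.880 and 0.884 (rho = 0.872 and 0.882, permutation p = 1e-05). Kcnj4 and Kcna4 followed the excitatory neuron markers at r = 0.845 and 0.821 (rho = 0.863 and 0.828, permutation p = 1e-05). These 4 values were 0.873, 0.878, 0.838 and 0.811 without the 2 farthest libraries.

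With the neuron, excitatory neuron and astrocyte marker scores adjusted for, a step added after the data were seen, 5 genes had an r over 0.3 with the activity score and 3 under -0.3. The former were Kcnj4 (0.611), Kcnk3 (0.407), Kcna4 (0.398), Kcna1 (0.394) and Kcnh7 (0.361). The latter were Kcna2 (-0.473), Kcnj9 (-0.325) and Kcnt1 (-0.312). The adjustment turned the sign for Kcnj9 (0.224 before it), one of 11 genes that had passed and turned, and Kcnt1 had -0.0290 before it. The correlation of Kcnj10 was -0.208 after this step and that of Kcnk2 -0.249. The shares of all genes with an r over 0.3 or under -0.3 after this step were not computed.

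Among themselves the 35 genes form 595 pairs, of which 99 had a run-centred r over 0.7 and 42 an r under -0.5. These counts are a description over the same libraries, and the shares over pairs of all genes were not computed. The highest pairs were Kcnc4 with Kcnh3 (0.918), Kcnj10 with Kcnk2 (0.916), Kcnc4 with Kcnq5 (0.907) and Kcnq3 with Kcnma1 (0.905). The lowest was Kcnh1 with Kcnk2 (-0.837). The 54 pairs within a family had a median r of 0.160 and the pairs across families 0.275.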

How the data were processed

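The 35 genes, the further gene lists, the drug classes and the tests were chosen with earlier results of these data known. RNA of 227 culture libraries was grouped by the agent in the labels, and the run code was read from them. Per the submitters' processing notes the tools were edgeR 3.10.5, limma, STAR 2.4.0 and Subread 1.4.6 and the build was mm10; which step used which tool is not given in the sources used here. The deposited counts are whole reads per gene, made by the authors and not normalized. The authors also deposited RPKM values, which follow from the counts and the deposited gene lengths, and these served only as an alternative for the vehicle levels.

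Counts were analysed in R 4.3.3 with edgeR 4.0.16 (TMM factors, default filter on low counts, quasi-likelihood F tests of a class or a drug against 9 vehicles). Log2 CPM with a prior count of 1 went into limma 3.58.1 with run code as a term. Adjusted p values are Benjamini-Hochberg over all genes of a comparison, with 0.05 as threshold. CPM values use TMM factors, and levels between genes are compared per kilobase. A single library has no error of its own. Against the vehicles, the spread between the vehicles stands for it. In the comparison within run code, the difference is taken from the drug's own run code. The spread there is pooled over the libraries of all 9 run codes, around the mean of each. The scripts were tested on simulated data with known changes.

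Values and statistics are given for genes past the threshold in a class or drug, at most 10 per comparison, for the 10 largest calls within run code, for at most 6 further channel genes per class, and for Kcnj11 with the KATP drugs. Genes named outside this rule (those with DESeq2, limma class calls, the 5 fibrates, the glucocorticoid values, the correlations with markers, the markers Rgs5 and Vip, and further channel genes with single drugs) were chosen after their values were seen. The kit marks strand, but whether counting used it is not given in the sources used here, so reads of Kcnh1, Kcnh3 and Kcnh7 may include some of Hhat, Mcrs1 and Gca, which overlap them on the opposite strand. Alternatives were RLE factors, DESeq2 1.42.0, no filter, a run-code term, a prior count of 3, uncentred values and leaving out libraries.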

Additional observations from a re-analysis of the deposited data

Results flagged for a closer look

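Of 210 sets of values (35 genes in the vehicles and in each of 5 classes of 4 to 6 drugs), 4 had a library that stood far from the others by Dixon's criterion, which chance alone meets in about 1 in 20 sets. With the KATP channel blockers, Glimepiride had 196 CPM of Kcna1, where the nearest other library had 161. It also had 107 CPM of Kcna6, nearest 81.5, and 120 CPM of Kcnq5, nearest 95.0. Among the sodium channel blockers, Rufinamide had 17.6 CPM of Kcna3, where the nearest other library had 20.7. Glimepiride's Kcna6 value was the highest of all 218 drugs.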

How the results depend on the processing

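Calls within run code numbered 49, 48 with RLE factors, 49 with a prior count of 3 and 37 without a filter. The 14 single-drug calls were 14 with RLE factors, 10 without a filter and 89 with DESeq2 (in 20 drugs), which gave 11 for Formoterol and 12 for Nilotinib. For classes, the benzodiazepine count of 5 fell to 1 without a filter. DESeq2 gave 6 for thyroid hormones, 1 for glucocorticoids and 2 for tricyclic antidepressants, and the run-code term gave 3 for thyroid hormones and 3 for glucocorticoids. Leaving out 1 library gave 1 to 6 for benzodiazepines, 0 to 1 for thyroid hormones, 4 to 8 for Fenofibrate, 0 to 2 for Formoterol and 2 to 8 for Nilotinib. The cause was not tested. The 20 fold changes against vehicle kept their direction under every alternative run. All passed with RLE factors and DESeq2, 8 missed the threshold without a filter, and 2 missed it with the run-code term. Of 207 fits with a library left out, 78 lost the call. Adjustment for marker scores turned the sign of 11 correlations with the activity score that had passed, to -0.0144 for Kcnq5, -0.0568 for Kcna6, -0.210 for Kcnc4, -0.0026 for Kcnb2, -0.114 for Kcnh3, -0.128 for Kcnj6, -0.270 for Kcnj11, -0.325 for Kcnj9, 0.0115 for Kcnn3, 0.135 for Kcnn2 and 0.0442 for Kcnd3. Without centring on run code, 13 of 35 correlations moved by 0.1 or more and none turned. The 35 vehicle levels moved by less than their spread when taken from the deposited RPKM. No paired analysis was possible because each drug has 1 library and no number in the labels pairs a drug with a vehicle. A change of 1 log2 unit can be missed with 1 library, so an uncalled gene is not shown to be unchanged.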
